A study of Mus musculus with 12 samples.

Results

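Pmp22, Pmp2, Ncmap, Prx, Drp2 and Egr2 are 6 genes that myelinating Schwann cells use to build and keep the myelin of peripheral nerve, and they were taken by symbol from the 38924 genes measured in spinal cord. All 6 were found in every one of the 12 libraries and all 6 passed the filter on low counts. The study sequenced polyadenylated RNA of the whole spinal cord from B6J.Cg mice that were 8 weeks old. C201R mice carry 1 copy of the C201R change in Gars, which encodes glycyl-tRNA synthetase, and the genotype tag of the libraries titled WT was read as wild type. The titles give 6 C201R libraries (3 male, 3 female) and 6 WT libraries (3 male, 3 female), and the library names kept in the description field also give 6 C201R and 6 WT libraries. These 2 labels differ in 4 libraries: 4 and 9 are named C201R and titled WT, and 11 and 12 are named WT and titled C201R. No label says which is right, so each comparison was made by title, by library name, and in the 8 libraries on which the labels agree.

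The titled sex is in doubt as well. Xist, the RNA that silences an X chromosome in female cells, lay between 109 and 129 TPM in 6 libraries and at 0.02 TPM or less in the other 6, and it contradicted the titled sex in 6 libraries (3 titled male with Xist, 3 titled female without). No library was moved to another group. The libraries held between 27175421 and 38271405 expected counts. No label states that every library is a separate animal, and the tests weigh differences against the spread from library to library.

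Schwann cells wrap the axons of peripheral nerves and of the spinal roots, whereas oligodendrocytes myelinate the cord itself, and a dissected cord can carry attached root tissue, whose share was not measured here. Pmp22 is a tetraspan membrane protein of compact peripheral myelin. Pmp2, a fatty acid binding protein, sits on the cytoplasmic face of those membranes. Ncmap is a membrane protein of Schwann cell myelin outside the compact part. Periaxin (Prx) and dystrophin-related protein 2 (Drp2) form a complex with dystroglycan that ties the Schwann cell surface to the basal lamina. Egr2, also called Krox20, is the transcription factor that switches on the myelin genes in Schwann cells, and some neurons induce it briefly on activity. In humans, changes in PMP22, PRX and EGR2 cause forms of Charcot-Marie-Tooth neuropathy, and changes in GARS cause an axonal form.

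The start regions of Prx and Egr2 are shown because POU factors of the Schwann lineage are known to act through octamer sites. RefSeq windows of 250 bases before to 50 after the start (GRCm38.p6) were given for 4 of the 6 genes, and these 2 windows hold the octamer core ATGCAAA. There were 12 windows in all, 5 of them for Egr2. The Egr2 window shown is one that holds the core, and it lies inside the span of the gene given below. Egr2 windows that begin at 67535249 and 67537316 do not hold the core. Capitals mark that core and, in Egr2, a CArG box, the site of serum response factor; positions count from the annotated start.
Prx, chr7:27499074-27499373, plus strand: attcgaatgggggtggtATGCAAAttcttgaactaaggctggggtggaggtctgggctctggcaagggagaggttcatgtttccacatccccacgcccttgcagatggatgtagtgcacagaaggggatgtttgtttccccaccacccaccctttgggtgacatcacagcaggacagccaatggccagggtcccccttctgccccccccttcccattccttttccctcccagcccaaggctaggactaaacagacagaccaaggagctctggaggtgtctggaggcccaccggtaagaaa
Egr2, chr10:67537619-67537918, plus strand: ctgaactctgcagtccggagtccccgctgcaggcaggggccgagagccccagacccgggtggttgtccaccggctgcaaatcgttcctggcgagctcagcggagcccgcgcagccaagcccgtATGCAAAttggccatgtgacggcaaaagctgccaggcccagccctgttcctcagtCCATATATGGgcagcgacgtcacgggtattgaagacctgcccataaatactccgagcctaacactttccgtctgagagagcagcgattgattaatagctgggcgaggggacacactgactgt
The core begins at -233 in the Prx window and at -127 in the Egr2 window, whose CArG box begins at -72. Searched on both strands, the core occurs in 4.63% and the CArG box in 1.63% of 32851 windows of the same length. These shares are for a single window and do not hold for a gene with several. The Pmp22 and Ncmap windows hold no octamer core, which says only that these letters are not there.

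Per unit of transcript length, Pmp22 (chr11:63128982-63159547, plus strand; GRCm38, GENCODE M21, for all positions here) was the most abundant of the 6 genes, with a median of 428 TPM over the 12 libraries. Prx (chr7:27499324-27520214, plus) had a median of 43.8 TPM and Drp2 (chrX:134404551-134456573, plus) of 36.7 TPM. Ncmap (chr4:135369576-135398227, minus) had a median of 13.8 TPM, Pmp2 (chr3:10179851-10183929, minus) of 9.57 TPM and Egr2 (chr10:67535475-67542188, plus) of 2.40 TPM. Pmp22 exceeded Prx, Drp2 exceeded Ncmap, and Pmp2 exceeded Egr2 in 12 of 12 libraries. The neighbours Prx and Drp2, and likewise Ncmap and Pmp2, kept that order in 8 of 12 libraries, so the order of those neighbours was not the same in every library. The difference between them was not tested. The counts behind these levels differed: Egr2 rested on 31 to 155 expected counts a library and Pmp2 on 67 to 515, against 4914 to 20310 for Pmp22.

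Levels of all 6 genes varied more between libraries than those of most genes. From the lowest to the highest library, Drp2 spanned 2.03 times in CPM, the library-size-scaled count after TMM. Ncmap spanned 2.52 times, Pmp22 3.39 times and Egr2 3.99 times. Prx spanned 4.92 times and Pmp2 8.18 times. The SD of log2 CPM was 0.94 for Pmp2, against a median of 0.096 over all genes above 1 CPM, and 0.915% of those genes had a larger one. It was 0.30 for Drp2, the steadiest of the 6, and 5.06% of genes had a larger one. Library 8 was the lowest for Pmp22, Ncmap, Prx, Drp2 and Egr2, while Pmp2 was lowest in library 3. In CPM the highest libraries were 5 for Pmp22, Prx and Drp2, 11 for Egr2, 6 for Pmp2 and 10 for Ncmap.

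**Figure D1:**
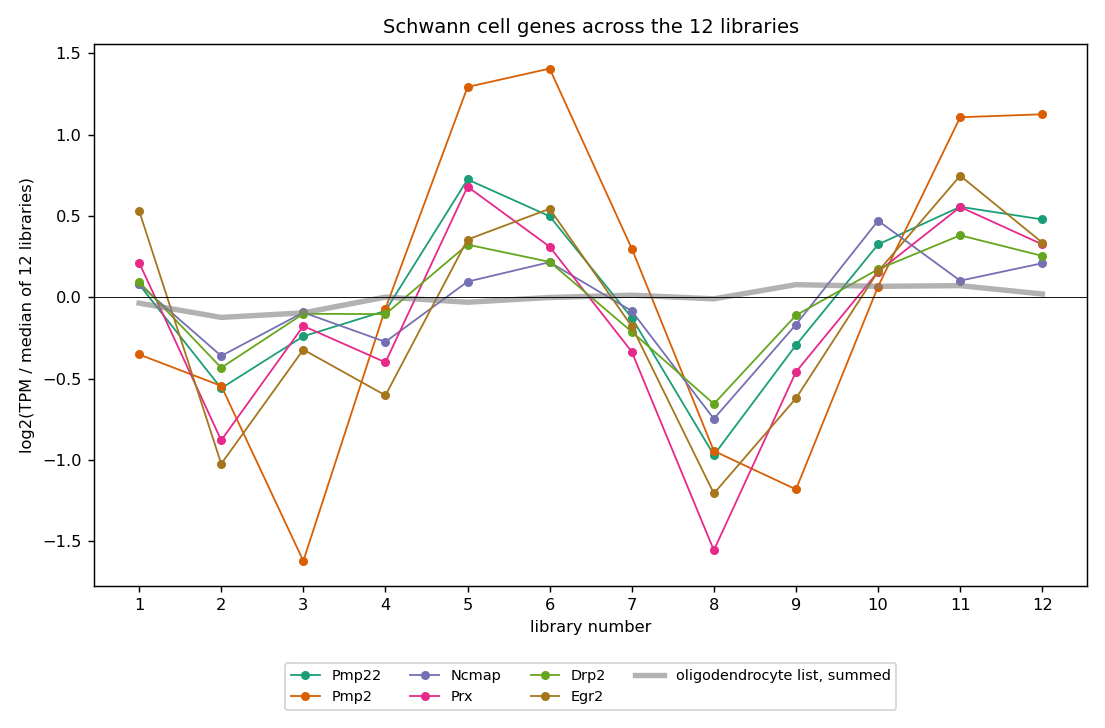
Level of each of the 6 genes and of the summed oligodendrocyte list (grey band) in each library, as log2 of TPM over the median of the 12 libraries. The 5 genes other than Pmp2 dip together in libraries 2 and 8 and lie above their medians in 1, 5, 6, 10, 11 and 12, Pmp2 departs most in library 3, and the oligodendrocyte sum stays nearly flat.

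Each gene was then set against the mean log2 CPM of the other 5, a description chosen after the data were seen, over libraries that share depth and dissection. Pmp22 followed that mean most closely over the 12 libraries, with r = 0.989, and its points lay within a residual SD of 0.079 log2 of the line. Drp2 had r = 0.964, Egr2 had r = 0.940 and Prx had r = 0.938. Per doubling of the others, Pmp2 moved by 1.55, Prx by 1.24, Pmp22 by 1.01 and Egr2 by 0.95 on the log2 scale, against 0.54 for Ncmap and 0.53 for Drp2. Ncmap followed with r = 0.863. Pmp2 was the least close, with r = 0.743 and a residual SD of 0.66 log2, against 0.23 for Prx, the next widest. Without libraries 5 and 8, which lie farthest from the median, r was between 0.807 and 0.985 for the 5 genes other than Pmp2 and 0.725 for Pmp2. The slopes were then 2.04 for Pmp2, 1.00 for Prx, 0.95 for Pmp22, 0.89 for Egr2, 0.48 for Drp2 and 0.44 for Ncmap.

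By library name, the distance of Pmp2 from its line was -0.72, 0.26, -1.31, 0.13, -0.68 and -0.43 log2 in C201R libraries 1, 2, 3, 4, 9 and 10. It was 0.34, 0.73, 0.39, 0.63, 0.27 and 0.39 log2 in WT libraries 5, 6, 7, 8, 11 and 12. All 6 libraries named WT lay above the line, library 8 among them, and 4 of 6 named C201R lay below it. The groups met between library 2, the highest named C201R, and library 11, the lowest named WT. Set against the same 5 genes, 0.884% of 17765 genes were lower without overlap in libraries named C201R. By title the distances overlapped, with -1.31 in library 3 to 0.39 in library 12 in libraries titled C201R, against -0.68 in library 9 to 0.73 in library 6 in libraries titled WT; 0.298% of genes were lower without overlap.

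**Figure D2:**
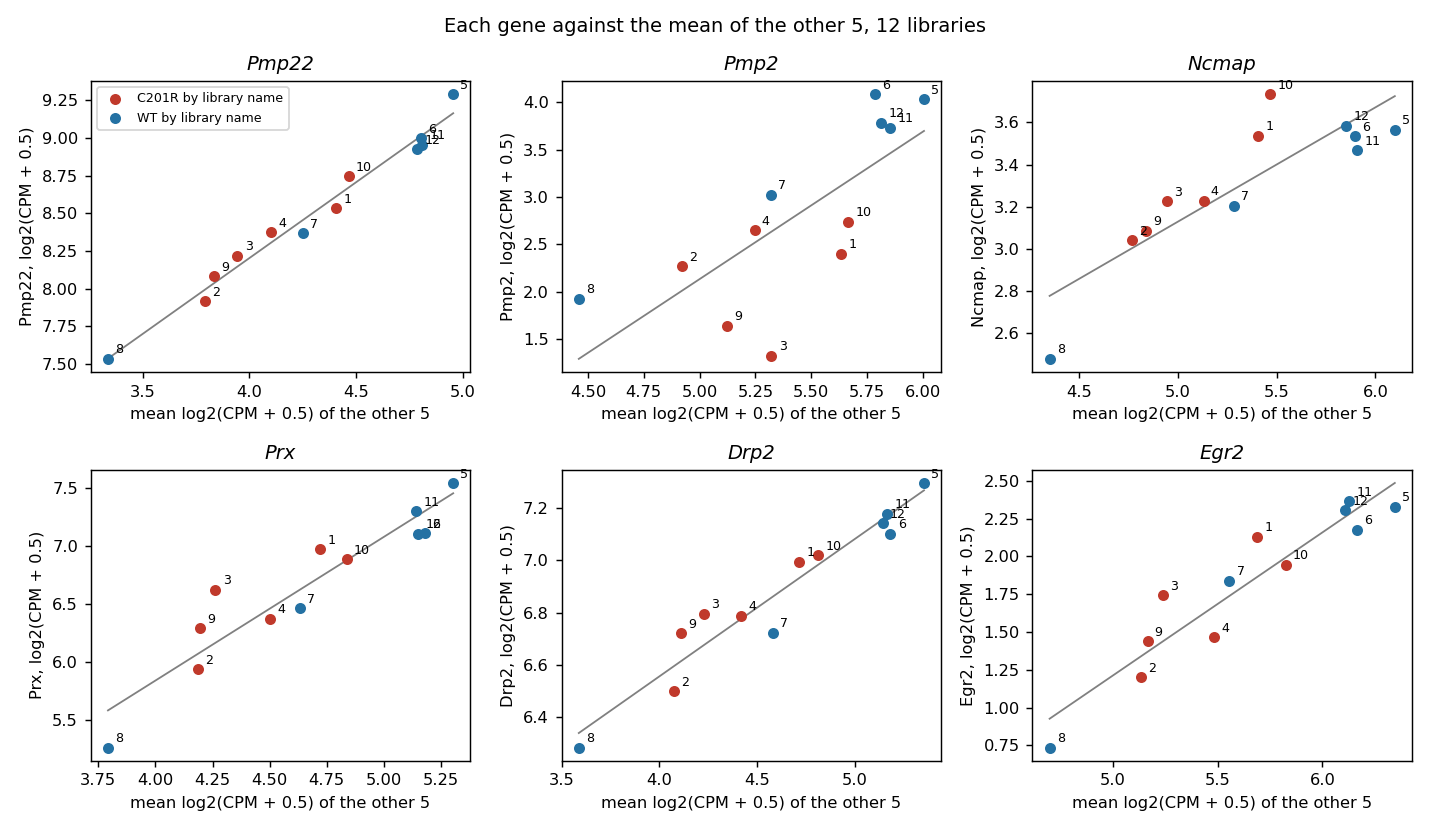
Each gene (y axis, log2 of CPM plus 0.5) against the mean of the other 5 on the same scale (x axis), 1 point a library with its number, coloured by the genotype in the library name; the grey line is the least squares fit. Pmp22 lies along its line, while Pmp2 scatters, with libraries 3, 9, 1 and 10, all named C201R, below it.

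Among themselves, the 5 genes other than Pmp2 correlated pairwise with r between 0.891 and 0.989 over the 12 libraries. Pmp2 correlated with them at 0.605 to 0.841. Egr2 did not follow Egr1, a related immediate early gene (r = 0.10). Of 15179 other genes above 1 CPM, the gene listed here as most like the mean profile of the 6 was Cldn19 (r = 0.986), a tight junction claudin of Schwann cells. Next came Plekha4, with r = 0.972, and Dhh, a hedgehog signal secreted by Schwann cells, with r = 0.970. Fam178b, Kif19a, Gas2l3, Lamb1, Gldn, Sbspon and Ddn followed at 0.963 to 0.927. Lamb1 encodes a laminin chain of the basal lamina and Gldn encodes gliomedin, which Schwann cells place at nodes of Ranvier.

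The label of the 6 as Schwann cell genes was checked against markers. Mog, a myelin protein gene of oligodendrocytes, spanned 1.18 times, and 75.0% of genes varied more. The summed level of the 12 oligodendrocyte genes lay between 4178 and 4804 TPM, and that of the 13 other Schwann cell genes between 139 and 236 TPM. Not every gene of that Schwann list behaved like the 6: Cdh19, Lgi4 and Pou3f1 had r of 0.10, 0.04 and -0.12 with their mean. In bulk cord, fewer Schwann cells, less attached root and less RNA per cell cannot be told apart.

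By title, no member passed the test between genotypes. The 5 genes other than Pmp2 were estimated slightly higher in C201R libraries and Pmp2 slightly lower, each by less than 0.3 on the log2 scale. Pmp22 had a lowest, median and highest TPM of 290.4, 494 and 629 in libraries titled C201R, against 218, 398 and 707 in those titled WT. Pmp2 had 3.11, 8.76 and 20.9 TPM in libraries titled C201R, against 4.22, 10.5 and 25.4 TPM in those titled WT. Both genes overlapped almost entirely, with the lowest Pmp22 library and the highest of both genes among those titled WT. The log2 difference, C201R minus WT, was 0.09 ± 0.19 (SE, n = 6 against 6) for Pmp22 and -0.22 ± 0.37 for Pmp2. It was 0.24 ± 0.23 for Prx, 0.11 ± 0.11 for Drp2, 0.25 ± 0.15 for Ncmap and 0.28 ± 0.23 for Egr2. Adjusted p-values from edgeR lay between 0.802 (Ncmap) and 0.966 (Pmp22), and 0 of 17765 genes (0%) were called. An unadjusted p under 0.05 was reached by 1202 genes, and 18 genes were called with DESeq2. The median difference was 0.18 over the 6 genes and 0.00 over all genes. It was 0.07 without library 8 and 0.09 without library 10, each with 4 members higher and 2 lower. Lists of other tissues were also estimated higher in libraries titled C201R, with 0 genes called. These were 10 of 11 sensory neuron genes of the dorsal root ganglion (median 0.65), all 10 meningeal fibroblast genes (median 0.33), all 7 fat genes (median 1.64) and all 7 red blood cell genes (median 0.40). Median summed TPM went the other way for fat genes, at 21.025 in libraries titled C201R against 22.495 in those titled WT. So it did for red blood cell genes (3429.43 against 3913.74) and sensory neuron genes (71.665 against 72.285). For meningeal fibroblast genes it was higher in C201R (204.74 against 177.74). The highest fat sum, 666 TPM, was in library 3 and the highest red blood cell sum, 10105 TPM, in library 2. Both are titled C201R. The part of these lists in the members' values was not tested.

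**Figure D3:**
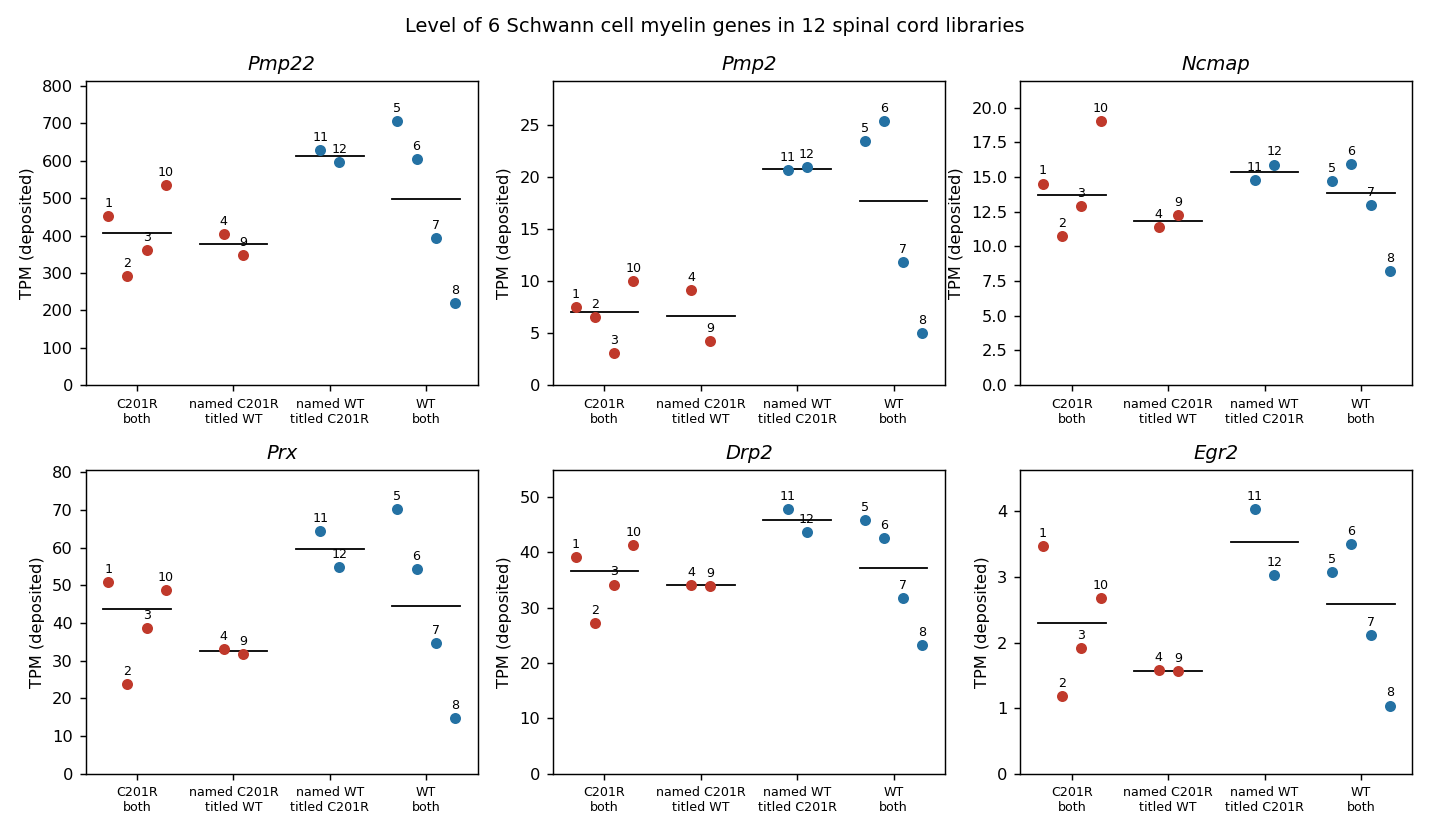
TPM of each gene, 1 point a library with its number, in the 4 combinations of labels (red, named C201R; blue, named WT; bars are medians). Every panel overlaps between red and blue. For Pmp2, libraries 5, 6, 11 and 12, all named WT and all titled female, stand above 20 TPM and the other 8 below 12 TPM.

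By library name, Pmp2 was the member that differed most: it was estimated lower in C201R libraries by 1.02 on the log2 scale, which did not pass after adjustment. The other 5 genes differed by less than 0.2 on the log2 scale. Pmp2 had a lowest, median and highest TPM of 3.11, 7.03 and 10.0 in libraries named C201R (mean 6.76 ± 2.70, SD, n = 6). Libraries named WT had 4.97, 20.8 and 25.4 TPM (mean 17.8 ± 7.84, SD, n = 6). The groups overlapped because of library 8, which was named WT and low for all 6 genes. The 5 other WT libraries, at 11.8 TPM or more, all lay above every C201R library. How many genes separate in this way once a library is set aside was not counted. The log2 difference of Pmp2 was -1.02 ± 0.30 (SE), with adjusted p = 0.169 in edgeR. It was the 1 member with an unadjusted p under 0.05, which 2273 of 17765 genes (12.8%) had.

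Pmp22 had 290.4, 383 and 536 TPM in libraries named C201R, against 218, 600.5 and 707 TPM in those named WT, a log2 difference of -0.16 ± 0.21. Prx had 23.8, 36.0 and 50.8 TPM in libraries named C201R, against 14.9, 54.6 and 70.2 TPM in those named WT, a difference of -0.05 ± 0.28. Drp2 had 27.2, 34.2 and 41.4 TPM in libraries named C201R, against 23.3, 43.2 and 47.8 TPM in those named WT, a difference of -0.02 ± 0.12. In each of these 3 genes the C201R range lay inside the WT range, since library 8 was lowest and library 5 or 11 highest. Ncmap had 10.7, 12.6 and 19.1 TPM in libraries named C201R, against 8.19, 14.7 and 16.0 TPM in those named WT, with a difference of 0.13 ± 0.17. Egr2, the transcription factor, had 1.18, 1.75 and 3.47 TPM in libraries named C201R, against 1.04, 3.05 and 4.03 TPM in those named WT, with a difference of -0.15 ± 0.26. Library 10, named C201R, was the highest for Ncmap, and the groups overlapped in both genes. Titled sex is not balanced between the named genotypes. Of the libraries named C201R, 2, 3, 9 and 10 are titled male, and of those named WT, 5, 6, 11 and 12 are titled female. The fits held titled sex, which Xist contradicts in 6 libraries, as a term, so a difference can be smaller than that of the medians. Without that term all 6 were estimated lower in libraries named C201R, with a median of -0.42 and again 0 called. Pmp2 was then at -1.44 ± 0.35 (adjusted p = 0.0809, edgeR).

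In the fit by library name, edgeR called 127 of 17765 genes (0.715%; 30 higher, 97 lower), and 0 of the 6 were among them. The adjusted p of the members other than Pmp2 was 0.812 or more. The median difference over all 6 genes was -0.10, with 5 of 6 estimated lower, against 0.00 over all genes. Single libraries moved this median: without library 8 it was -0.39, with 6 of 6 lower and 3 members at an unadjusted p under 0.05, and without library 4 it was 0.09, with 4 higher and 2 lower. No member was free of overlap in TPM between the genotypes by name, which 1.03% of genes were. By title 0.259% of genes were free of overlap, and again 0 members. Gars, the changed gene, was called at 0.15 ± 0.03 (adjusted p = 0.0343, edgeR), with 150 CPM in libraries named C201R and 136 CPM in those named WT. By title Gars was not called, at 0.035 ± 0.046 (adjusted p = 0.934, edgeR), with 145 CPM in C201R and 141 CPM in WT. All 7 fat genes were estimated higher in libraries named C201R (median 2.61), where library 3 had 666 TPM in sum and the other 11 had 68.8 TPM or less. All 7 red blood cell genes were also estimated higher (median 0.70), and 0 of either list were called; their part in the members' values was not tested.

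In the 8 libraries whose labels agree, Pmp2 had 7.50, 6.56, 3.11 and 10.0 TPM in C201R libraries 1, 2, 3 and 10. WT libraries 5, 6, 7 and 8 had 23.5, 25.4, 11.8 and 4.97 TPM. The groups overlapped because of library 8, and every other WT value was above every C201R value. With no library set aside, 6.74% of genes had no overlap in these 8 libraries, and Pmp2 was not among them. The share of genes without overlap once a library is set aside was not counted. The log2 difference was -0.88 ± 0.43 (SE, n = 4 against 4), with adjusted p = 0.446 in edgeR. Pmp22 differed by 0.00 ± 0.28, Drp2 by 0.10 ± 0.15 and Egr2 by 0.15 ± 0.31. Prx differed by 0.23 ± 0.33 and Ncmap by 0.31 ± 0.22. The direction of most members rested on the titled sex term and on library 8. Without that term 1 member was estimated higher and 5 lower in C201R, with Pmp22 at -0.30, Prx at -0.16, Egr2 at -0.11 and Drp2 at -0.06. Without library 8 the count was again 1 higher and 5 lower (median -0.15), against 5 higher and 1 lower (median 0.12) in all 8. Of 18384 genes, 29 (0.158%) were called, none of them a member. In the same 8 libraries 11 of 12 sensory neuron genes (median 0.94), all 10 meningeal fibroblast genes (median 0.34), all 9 fat genes (median 2.98) and all 7 red blood cell genes (median 0.85) were estimated higher in C201R. Summed sensory neuron TPM went the other way, with a median of 51.9 in C201R against 79.8 in WT. Calca, the 1 lower gene of that list, differed by -1.22 ± 0.44 (adjusted p = 0.302, edgeR). The highest fat sum, 666 TPM, was in library 3, and the highest red blood cell sum, 10105 TPM, in library 2. Library 1 is the only C201R library titled female among these 8. A gene could therefore pass the filter on titled groups by being high in 1 library. Of the fat genes, 9 were tested here against 7 in all 12 libraries. The counts of genes estimated higher are thus not independent of the filter. No gene of these lists was called, and the part of the lists in the members' values was not tested.

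**Figure D4:**
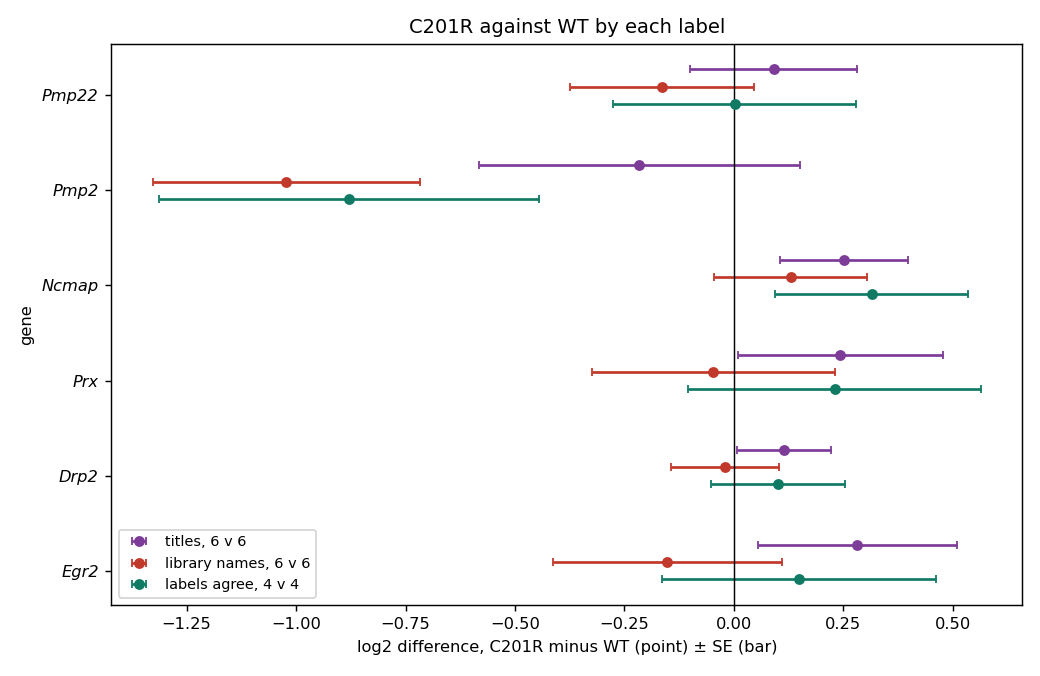
Log2 difference, C201R minus WT (points), with its SE (bars), for each gene by title, by library name and in the 8 libraries whose labels agree. Pmp2 lies at -1.02 by name, at -0.88 in the 8 libraries and at -0.22 by title; the other 5 genes lie within 0.32 of 0.

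By titled sex, all 6 genes were estimated lower in libraries titled male than in those titled female, and none passed after adjustment. Pmp2 had 3.11, 5.77 and 11.8 TPM in libraries titled male, against 7.50, 20.8 and 25.4 TPM in those titled female. Prx had 14.9, 33.3 and 48.9 TPM in libraries titled male, against 33.2, 54.6 and 70.2 TPM in those titled female. The ranges overlapped for all 6 genes; 0.186% of genes were free of overlap. The log2 difference, titled male minus titled female, was -1.40 ± 0.37 (SE, n = 6 against 6) for Pmp2, -0.80 ± 0.24 for Prx and -0.72 ± 0.23 for Egr2. It was -0.69 ± 0.19 for Pmp22, -0.41 ± 0.11 for the X-linked Drp2 and -0.34 ± 0.15 for Ncmap. Unadjusted p-values lay between 0.00240 and 0.0367 and adjusted p-values in edgeR between 0.791 and 0.894. No gene of 17765 (0%) was called by edgeR, against 981 below 0.05 before adjustment and 9 called with DESeq2. The titled sex is the label that Xist contradicted in 6 libraries. Drp2 had 39.18, 27.17, 34.2, 23.29, 47.78 and 43.77 TPM in libraries with Xist (1, 2, 3, 8, 11 and 12). It had 34.15, 45.92, 42.67, 31.68, 33.98 and 41.35 TPM in those without (4, 5, 6, 7, 9 and 10). These ranges overlapped, and no difference by Xist was tested. In libraries titled male, all 11 sensory neuron genes of the dorsal root ganglion were also estimated lower (median -1.18), with 0 called. All 12 skeletal muscle and 7 fat genes were estimated higher (medians 0.79 and 1.79), with 0 called. The highest fat sum, 666 TPM, was in library 3, while the median sum was 24.8 TPM in titled males and 18.7 TPM in titled females. The part of these lists was not tested.

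The genotype difference by title within titled females, within titled males, and its change between them gave no called member. In edgeR each of the 3 tests called 0 of 17765 genes (0%), against 695, 1309 and 758 genes below 0.05 before adjustment and 2, 30 and 2 called with DESeq2. Pmp2 differed between genotypes by -0.30 ± 0.52 in titled females and -0.11 ± 0.56 in titled males (n = 3 against 3).

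In lists of related genes, edgeR called 2 genes by library name, Ahnak2 and Kcnj10. Of the 13 other Schwann cell genes 0 were called and 3 had an unadjusted p under 0.05 (12.8% of all genes had one), with 3 higher, 10 lower and a median of -0.09. Pou3f1, the POU factor that acts with Egr2, had the lowest p there, at 0.34 ± 0.11 (adjusted p = 0.209, edgeR), followed by Lgi4, a secreted Schwann cell signal, at 0.12 ± 0.04 (adjusted p = 0.219, edgeR). Of the 12 myelin genes that Schwann cells share with oligodendrocytes 0 were called, 2 higher and 10 lower (median -0.09). Mbp, myelin basic protein, differed by -0.12 ± 0.04 and Ugt8a, which makes myelin galactolipids, by -0.21 ± 0.06. Of 12 oligodendrocyte genes 0 were called, 2 higher and 10 lower (median -0.04), with Ermn at -0.15 ± 0.03 (adjusted p = 0.0648, edgeR).

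The list made for the dystroglycan complex, the partner of Prx and Drp2, had 14 genes tested, 3 higher and 11 lower, with a median of -0.03. None passed, and Cmtm6, at -0.11 ± 0.05, had the lowest p. Cmtm6 is in that list but is not a part of the complex itself. The regulators of Egr2 and their partners had 10 genes tested, 3 higher and 7 lower, with 0 called; the Egr2 corepressor Nab1 differed by -0.12 ± 0.04. Of 10 repair Schwann cell genes 0 were called, 6 higher and 4 lower (median 0.01), and of 9 other neuropathy genes of Schwann cells 0 were called, 2 higher and 7 lower (median -0.05).

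Among 13 tested paralogs of the 6 genes, 5 were higher and 8 lower, and 1 was called by library name. Ahnak2, a large relative of Prx by its PDZ domain, fell by 0.75 ± 0.06 on the log2 scale (adjusted p = 6.56e-05, edgeR) in libraries named C201R. Kcnj10, a potassium channel of satellite glia that cord astrocytes also express, was the 1 called gene of 4 satellite glia genes, at -0.18 ± 0.03 (adjusted p = 0.0280, edgeR). No gene was called among 11 sensory neuron genes (10 higher, 1 lower, median 0.38) although their summed TPM had a lower median in libraries named C201R (51.5 TPM) than in those named WT (79.8 TPM). Calca, the 1 lower gene, had a mean of 23.5 CPM and differed by -1.17 ± 0.34 (adjusted p = 0.158, edgeR). Its share of that sum was not tested. None was called among 10 meningeal fibroblast genes (6 higher, 4 lower), 4 perineurial genes (1 higher, 3 lower) and 12 skeletal muscle genes (10 higher, 2 lower). In the 8 agreeing libraries, Ahnak2 (-0.74 ± 0.08, adjusted p = 0.0139, edgeR) and Slc2a1, a glucose transporter of perineurium and vessels (-0.30 ± 0.04, adjusted p = 0.0260, edgeR), were called and lower in C201R. By title 0 genes of any list were called.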

How the data were processed

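PolyA-selected, stranded libraries of spinal cord RNA were read as pairs of 75 bases, per the labels' protocols. The submitters' processing notes name RSEM 1.2.12 and Bowtie2 2.2.0. Neither build nor annotation release is given in the sources used here. Each of 12 libraries has an RSEM expected count, TPM, FPKM and length for 38924 genes, deposited by the authors and named per the file headers. RSEM shares reads among genes they fit, so values of close paralogs are uncertain. The deposited FPKM served only to check the order of levels.

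Expected counts were rounded to whole numbers, filtered with filterByExpr on the 4 titled groups (17765 genes, or 18384 for the 8 agreeing libraries), TMM-scaled and tested by quasi-likelihood (edgeR 4.0.16, R 4.3.3). Genotype fits held titled sex as a term and the titled sex fit held title genotype. P-values were adjusted by Benjamini-Hochberg over all genes tested, with a threshold of 0.05, and SEs are the log2 difference over the square root of F. Alternatives were DESeq2 1.42.0, limma 3.58.1 on log2(TPM + 1) and log2(TPM + 0.1), RLE size factors, no filter, a mean above 1 CPM, no sex term, library number as a term, and leaving out each library. Correlations used log2(CPM + 0.5) and carry no p.

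The members and all gene lists were chosen with earlier results of these data known. Named are all 6 members, the 10 genes most like their mean profile, called genes of each list, and otherwise up to 2 genes of lowest p; Gars, Xist, Mog and Egr1 serve as references. 1 gene that this rule would also name is not reported here. Positions came from GENCODE M21 (GRCm38), matched by Ensembl ID for 96.62% of genes. All 66 library pairs differed beyond sampling noise (lowest chi-square 6.50 per degree of freedom). The fits were tested on simulated data with 50 genes changed at each size. Of genes changed 2 times, 86% were recovered by title, 86% by library name and 66% in the 8 libraries, with 10, 3 and 10 false calls. The changed genes were drawn from all tested genes. The 6 members vary more, with an SD of log2 CPM of 0.30 to 0.94 against a median of 0.096. These shares therefore do not give the recovery for the members. Tables and plots were made in Python 3.11.15 (pandas 2.3.3, numpy 2.4.6, matplotlib 3.10.9, scipy 1.17.1).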

Additional observations from a re-analysis of the deposited data

How the results depend on the processing

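No member was called by title, by library name, by titled sex, within titled sexes or in the 8 agreeing libraries under any alternative run. In the DESeq2 fit of titled sex, Egr2 got no adjusted p (unadjusted p = 0.00149, DESeq2), so it was not judged there. The number of all genes called by title was 0 in edgeR, 18 in DESeq2 and 8 with library number as a term; the cause was not tested. By library name it was 127 in edgeR, 318 in DESeq2, 41 and 42 in limma with a pseudocount of 1 and 0.1, and 235 with library number as a term. Leaving out each library gave 52 to 209: 55 without library 1, 83 without 3, 56 without 4, 52 without 7, 71 without 8, 209 without 9 and 80 without 12.

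Pmp2 by library name kept its direction under every alternative, with adjusted p between 0.0605 and 0.442 in edgeR, DESeq2 and limma. Estimates near 0 changed sign by library name: Ncmap to -0.028 without the sex term, Prx to 0.016 and 0.022 in limma and 0.061 with library number, and Drp2 to 0.0069 and 0.0083 in limma and 0.067 with library number. Leaving out each library by name gave -0.41 to -0.012 for Pmp22, -0.063 to 0.27 for Ncmap, -0.36 to 0.21 for Prx, -0.16 to 0.092 for Drp2 and -0.43 to 0.084 for Egr2. By title it gave -0.048 to 0.21 for Pmp22 and -0.38 to 0.0057 for Pmp2. No paired analysis was possible because the labels give each library its own number. Egr2 rests on the fewest counts, but the SEs did not follow the counts: by title the SE was 0.23 for both Prx and Egr2, 0.19 for Pmp22 and 0.15 for Ncmap.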
